A study of Mus musculus with 72 samples.

Results

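Fed mice that lacked the conserved noncoding element E4 were set against fed wild-type mice of the E4 line, and RNA of the hypothalamus was counted in both. The members are the 4 knockout and the 4 wild-type columns of the E4 fed table, 8 of the 72 samples of the series, and were taken by those labels without any measured value. Per the labels, all 8 were total RNA of adult B6 hypothalamus with feed available, and all came from the sequencing batch of the fed E4 libraries. For comparison, 7 libraries of E4 mice deprived of food for 72 h with water (3 knockout, 4 wild type) and 30 fed libraries of the lines E1, E2, E3 and E5 were used. The labels give neither where E4 lies nor the ages, the sex or how the knockout was made, so no count of a deleted sequence could check the genotype. Nothing states that the 4 libraries of a group came from separate litters or days, and p-values measure the spread between these libraries.

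The deposited tables bear the name of Fto, a gene for an RNA demethylase whose introns hold enhancers of neighbouring genes and whose human variants are tied to body weight. The hypothalamus holds the neurons that set hunger, body temperature and hormone release. It also holds myelinating oligodendrocytes, astrocytes and a dense network of capillaries, whose wall is made of endothelial cells wrapped by pericytes. Counts of whole tissue mix all of these, and fewer cells of a type cannot be told apart from less RNA per cell.

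Library totals were 20189953 to 29868165 counts in knockouts and 22587740 to 33981500 in wild types, over 52286 listed genes, of which 18430 passed the filter on low counts. Levels below are CPM, read counts scaled to a common library size and composition, and fold changes are log2 values of knockout over wild type with their standard error (SE). Wild type 4 stood apart from the other 7 libraries. It alone carried the first principal component (45.3% of the variance), its GC-rich genes were 0.357 lower on the log2 scale than its GC-poor genes relative to the mean library (between -0.0329 and 0.167 in the others), and its genes of long transcripts were 0.185 higher than those of short ones (between -0.118 and -0.00665 in the others). Removing it brought the common biological coefficient of variation from 16.9% to 9.98%, against 8.53% to 26.6% in the other fed lines, and the median SE of a fold change from 0.13 to 0.087. Medians of the gene lists below are therefore also given without wild type 4, as are many of the single genes. Markers of nearby brain regions differed between libraries as well: 12 striatal genes summed to 1220 and 1541 CPM in knockouts 2 and 4 and to 1991 CPM in wild type 4, against 851 to 1037 in the other 5, and 11 thalamic genes summed to 621 and 448 CPM in knockouts 1 and 4 and to 564 CPM in wild type 4, against 302 to 339.9 in the other 5. Defining markers of pituitary and liver were near 0 in all 8, with sums of at most 3.06 and 4.89 CPM.

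No gene was called at an adjusted p under 0.05 by the quasi-likelihood test of edgeR (0 of 18430, 0%), where the smallest adjusted p was 0.787. At an unadjusted p under 0.05, 306 genes were higher (1.66%) and 658 were lower (3.57%) in knockouts. The groups did not overlap for 453 genes that were lower (2.46%) and 296 that were higher (1.61%) in knockouts, and the median fold change of all genes was 0.0025. DESeq2 called 3 genes (0.0101% of the 29834 genes it gave an adjusted p), Rgs5, Carmil3 and Ushbp1. The likelihood ratio test of edgeR called 2 (0.0109%), Rgs5 and Ushbp1. All of these were lower in knockouts. On the 7 libraries without wild type 4, 729 genes were higher (3.9%) and 856 were lower (4.57%) at an unadjusted p under 0.05, and the quasi-likelihood test again called none, with 0.0599 as the smallest adjusted p, that of Rgs5. There DESeq2 called 43 genes (0.344%), 18 higher and 25 lower, and the likelihood ratio test called 31 (0.166%), 12 higher and 19 lower, with 22 in common. Genes lower in knockouts at an unadjusted p under 0.05 had a median GC content of 52.3%, those higher 47.5% and all genes 49.0%; without wild type 4 these were 53.3%, 44.3% and 49.0%. The part of base composition in the calls was not tested beyond a fit that removed the GC trend of every library, which called 0 genes on 8 libraries and Rgs5 alone on 7. On the 7, that fit had 738 genes higher and 550 lower at an unadjusted p under 0.05, so more were higher there than lower.

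Since Rgs5, Ushbp1 and Carmil3 are the genes that more than the quasi-likelihood test singled out, the 250 bases before the start of each are shown as RefSeq gives them for GRCm38.p6, 5′ to 3′ on the strand of the gene. They lie at chr1:169655251-169655500 on the plus strand for Rgs5, chr8:71395802-71396051 on the minus strand for Ushbp1 and chr14:55490819-55491068 on the plus strand for Carmil3. The mm10 annotation used here for gene positions starts Carmil3 at chr14:55490651, so by that annotation its window lies within the gene.
Rgs5: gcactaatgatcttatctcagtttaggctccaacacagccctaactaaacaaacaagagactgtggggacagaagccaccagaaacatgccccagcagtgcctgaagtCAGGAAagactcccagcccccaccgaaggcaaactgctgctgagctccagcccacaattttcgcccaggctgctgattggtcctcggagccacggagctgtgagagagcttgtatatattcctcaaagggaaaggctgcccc
Ushbp1: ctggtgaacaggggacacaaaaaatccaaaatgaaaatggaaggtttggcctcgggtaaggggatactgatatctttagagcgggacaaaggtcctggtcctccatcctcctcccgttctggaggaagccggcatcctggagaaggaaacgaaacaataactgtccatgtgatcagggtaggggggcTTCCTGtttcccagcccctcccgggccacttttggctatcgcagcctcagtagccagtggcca
Carmil3: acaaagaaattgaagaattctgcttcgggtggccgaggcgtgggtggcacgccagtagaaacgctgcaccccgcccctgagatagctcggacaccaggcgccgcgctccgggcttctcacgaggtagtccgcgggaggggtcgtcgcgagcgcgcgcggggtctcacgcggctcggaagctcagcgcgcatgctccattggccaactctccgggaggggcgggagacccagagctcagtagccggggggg
Capitals mark the motif CAGGAA on either strand. It is a longer form of the GGAA core that ETS factors, a family active in blood vessel endothelium, are known to bind. Other stretches of GGAA, which all 3 windows hold, are not marked. The Rgs5 promoter holds it once and that of Ushbp1 once, on the opposite strand (TTCCTG), while the Carmil3 window has no match. Of 32851 promoters in the table, 25.7% hold it in the same window, so a match is a description only. None of the 3 windows holds TATAAA, which 12.4% of promoters hold. Their GC content is 53.6%, 54.0% and 68.0%.

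Rgs5 encodes a regulator of G protein signalling that marks pericytes of brain capillaries. Its level was 31.2, 32.7, 30.9 and 28.3 CPM in the 4 knockouts, against 44.1, 46.3, 43.2 and 54.6 CPM in the 4 wild types. Every knockout was below every wild type, and wild type 4 was the highest. The fold change was -0.61 (SE 0.09), with an unadjusted p of 6.01e-05, an adjusted p of 0.787 by edgeR's quasi-likelihood test, 0.00116 by its likelihood ratio test and 0.000355 by DESeq2. It was -0.54 (SE 0.06) without wild type 4.

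Ushbp1 encodes a protein that binds the PDZ domains of the Usher syndrome protein harmonin. It was counted at 1.36, 1.31, 1.05 and 1.01 CPM in knockouts, against 2.35, 2.35, 2.68 and 2.54 CPM in wild types. The groups did not overlap, and the fold change of -1.07 (SE 0.18) was the same without wild type 4. Its adjusted p was 0.787 by the quasi-likelihood test, 0.00116 by the likelihood ratio test and 0.037 by DESeq2. It lies on the same chromosome as Fto, at chr8:71384272-71395802 in the mm10 annotation. Carmil3 belongs to a family that regulates actin capping protein. It was at 63.8, 62.4, 63.2 and 64.6 CPM in knockouts and at 79.9, 84.2, 79.98 and 92.4 CPM in wild types. Its knockout values lay within a narrow band below all wild types, with a fold change of -0.41 (SE 0.07), an adjusted p of 0.787 by edgeR's quasi-likelihood test and 0.00275 by DESeq2, and -0.36 (SE 0.05) without wild type 4. Ssh3, a slingshot phosphatase that activates the actin-severing protein cofilin, was at 30.5, 31.4, 32.0 and 29.8 CPM in knockouts, against 39.9, 38.6, 38.3 and 45.1 CPM in wild types (-0.39, SE 0.08). It too had no overlap between the groups. On the list of 30 genes of actin capping and branching to which Carmil3 belongs, 24 were positive and 6 negative, with 1 higher and 2 lower at an unadjusted p under 0.05 (1.66% and 3.57% of all genes), and the median was 0.11. These were 20 positive, 4 higher and 2 lower without wild type 4 (3.9% and 4.57% of all genes), with a median of 0.03.

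**Figure D1:**
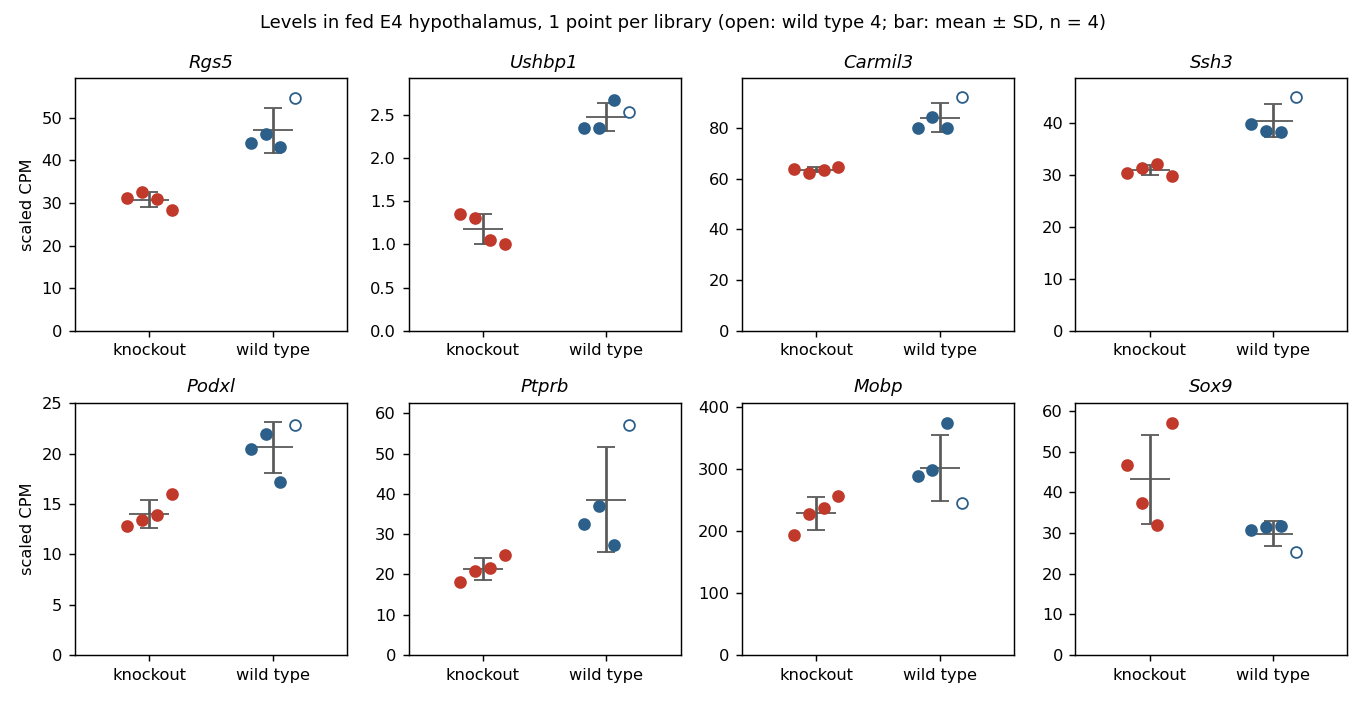
Levels of 8 genes in each library of the fed E4 comparison (vertical axes: scaled CPM from 0; knockout left, wild type right; points are libraries, bars the mean ± SD of 4). Rgs5, Ushbp1, Carmil3, Ssh3, Podxl and Ptprb show every knockout below every wild type, Mobp has knockout 4 above wild type 4 and the other wild types above all knockouts, and Sox9 has all knockouts above all wild types.

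Genes of the capillary wall had lower levels in knockouts as a group, though none was called by the quasi-likelihood test. All 23 endothelial markers had a negative fold change, 8 of them at an unadjusted p under 0.05 where 3.57% of all genes were lower, with a median of -0.39 where that of all genes was 0.0025. Without wild type 4, 22 of 23 were negative, 10 were lower at that threshold (4.57% of all genes) and 0 higher, and the median was -0.37. Leaving out other single libraries gave medians from -0.62, without knockout 4, to -0.33, without knockout 1. Their summed level was 199.4, 220.2, 223.8 and 285.6 CPM in knockouts, against 310, 335, 271 and 400 CPM in wild types. Knockout 4, the highest knockout, lay above wild type 3, the lowest wild type, so the sums overlapped by that pair. The groups did not overlap for 2 of the 23, both lower in knockouts, against 2.46% of all genes.

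Ptprb encodes VE-PTP, the phosphatase that restrains the Tie2 receptor on endothelium. It was at 18.2, 20.7, 21.5 and 24.9 CPM in knockouts and at 32.5, 37.0, 27.4 and 57.2 CPM in wild types, a fold change of -0.85 (SE 0.21), or -0.60 (SE 0.12) without wild type 4. The groups did not overlap, and wild type 4 carried the highest value. Tie1, a receptor of the same system, was at 2.13, 2.06, 2.68 and 3.96 CPM in knockouts, against 4.87, 5.02, 4.44 and 3.86 CPM in wild types (-0.74, SE 0.22), with knockout 4 above wild type 4. The angiopoietin receptor gene Tek, Tie2 itself, was at 14.5, 14.9, 15.7 and 16.2 CPM in knockouts, against 17.4, 19.8, 16.1 and 32.0 CPM in wild types. Its fold change of -0.47 (SE 0.20) was -0.22 (SE 0.09) without wild type 4, which held the value that stood far above the rest.

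Flt1, the VEGF receptor 1, was at 15.8, 24.8, 26.7 and 33.2 CPM in knockouts, against 41.4, 37.3, 31.7 and 61.6 CPM in wild types (-0.77, SE 0.24). Knockout 4 lay just above wild type 3, and the other knockouts lay below all wild types. The adhesion receptor gene Adgrl4 had a fold change of -0.80 (SE 0.26), or -0.49 (SE 0.16) without wild type 4, and Pecam1, the junction protein CD31, had a fold change of -0.53 (SE 0.19). The next 3 genes, also known from endothelium, were not on the list. Cd93, a lectin-like receptor, had a fold change of -0.89 (SE 0.23). For Robo4, an endothelial guidance receptor, knockouts were at 1.79, 1.63, 1.59 and 2.05 CPM, against 3.003, 2.84, 2.77 and 3.57 CPM in wild types (-0.78, SE 0.17), without overlap. Podxl, a sialomucin of the vessel lumen, was at 12.8, 13.4, 13.9 and 16.0 CPM in knockouts, against 20.5, 21.95, 17.2 and 22.9 CPM in wild types (-0.55, SE 0.11), again without overlap.

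Some list members serve the blood-brain barrier. Slc2a1, the glucose transporter GLUT1, was at 25.3, 23.9, 27.4 and 24.1 CPM in knockouts, against 34.2, 32.2, 30.8 and 23.6 CPM in wild types. Wild type 4 was the lowest of all 8, and the fold change was -0.27 (SE 0.12) with it and -0.37 (SE 0.07) without it. The efflux pump gene Abcb1a, named after its values had been seen, had a fold change of -0.49 (SE 0.20), and of -0.29 (SE 0.14) without wild type 4. Ly6c1, an endothelial surface protein, was at 7.22, 8.01, 7.12 and 9.13 CPM in knockouts, against 11.7, 11.7, 10.3 and 5.23 CPM in wild types. Wild type 4 again was the lowest library, and the fold change was -0.31 (SE 0.23), or -0.52 (SE 0.12) without it. On the 7 libraries, DESeq2 called Ptprb, Ly6c1 and Slc2a1 among the 23, where it called 0.344% of the genes it gave an adjusted p.

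Of 19 tested pericyte and smooth muscle markers, 4 were lower (3.57% of all genes) and 0 higher at an unadjusted p under 0.05, 11 had a negative sign and the median was -0.13; without wild type 4, 5 were lower (4.57% of all genes), 14 negative and the median was -0.16. Without wild type 2 the median was 0.06. Their sum was 179, 176, 174 and 183 CPM in knockouts, against 198.6, 237, 190 and 206 CPM in wild types, with all knockouts below all wild types. Rgs5 is a member, so its counts are part of each sum. With the Rgs5 counts taken off, the sums of the groups overlap, with knockout 1 above wild type 3 and knockout 4 above wild types 1, 3 and 4. Besides Rgs5 the lower members were Myh11, Mcam and Abcc9. Myh11, the myosin heavy chain of vascular smooth muscle, was at 2.18, 1.63, 1.47 and 3.09 CPM in knockouts, against 4.16, 7.87, 2.46 and 6.99 CPM in wild types (-1.35, SE 0.37), where knockout 4 exceeded wild type 3. Mcam, the adhesion molecule CD146, had a fold change of -0.40 (SE 0.14). Abcc9, a potassium channel subunit of brain pericytes, was at 8.39, 7.93, 8.75 and 7.45 CPM in knockouts, against 9.18, 9.90, 11.1 and 9.78 CPM in wild types (-0.30, SE 0.11), with no overlap. Mcam and Abcc9 overlap other gene models, and since the strand of the libraries is not stated, their reads cannot be told apart from those of an antisense partner.

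**Figure D2:**
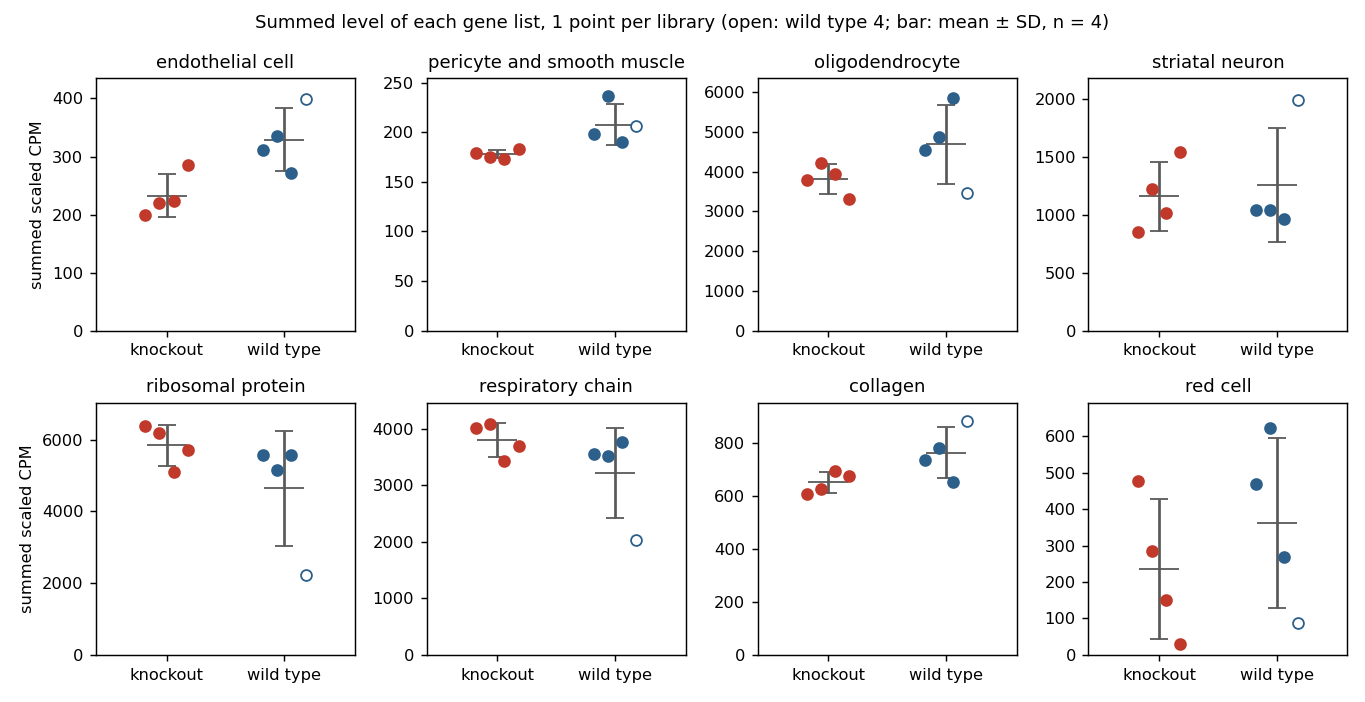
Summed scaled CPM of 8 gene lists in each library (knockout left, wild type right; points are libraries, bars the mean ± SD of 4, vertical axes from 0). The endothelial sum was 199.4 to 285.6 CPM in knockouts and 271 to 400 CPM in wild types, and wild type 4 lies far from the other wild types in the striatal, ribosomal protein and respiratory chain panels.

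The paired collagen genes of the vessel basement membrane, Col4a1 and Col4a2, had lower levels in all knockouts. Col4a1, which encodes the α1 chain of type IV collagen, was at 37.7, 34.9, 33.2 and 39.1 CPM in knockouts, against 41.7, 50.4, 41.2 and 43.8 CPM in wild types (-0.29, SE 0.09). Its partner Col4a2 was at 55.8, 56.8, 64.2 and 69.4 CPM in knockouts, against 75.5, 79.7, 70.4 and 94.8 CPM in wild types (-0.38, SE 0.11). Neither overlapped between the groups; both genes start from a shared stretch on opposite strands, so some reads may be shared. Of 29 collagen genes, 27 were negative and 6 were lower at an unadjusted p under 0.05 (3.57% of all genes), with a median of -0.23. Without wild type 4, 20 were negative, 5 were lower (4.57% of all genes) and 1 was higher, with a median of -0.10. Col23a1, a transmembrane collagen, was at 30.6, 26.5, 43.7 and 29.6 CPM in knockouts, against 52.1, 46.1, 47.9 and 42.0 CPM in wild types (-0.53, SE 0.15), with knockout 3 above wild type 4. Bmp1, the protease that trims procollagen, was at 17.5, 20.3, 19.7 and 19.7 CPM in knockouts, against 22.8, 25.5, 24.9 and 29.4 CPM in wild types (-0.41, SE 0.10), without overlap. Markers of fibroblasts, which make the collagens of the meninges, had 8 positive and 5 negative fold changes among 13 tested genes and a median of 0.03, or -0.10 without wild type 4.

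Myelin genes had lower levels in most knockouts too. Among 18 oligodendrocyte markers 17 were negative, and the median was -0.25. At an unadjusted p under 0.05, 4 were lower (3.57% of all genes) and 0 higher. All 18 were negative without wild type 4, 11 were lower at that threshold where 4.57% of all genes were, and the median was -0.33. Without wild type 3, the library with the highest sum, the median was -0.11. The sum was 3780, 4225, 3943 and 3311 CPM in knockouts, against 4555, 4874, 5863 and 3462 CPM in wild types. Wild type 4 lay below 3 of the 4 knockouts, and the other wild types lay above all of them.

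Mobp, which compacts myelin, was at 193, 227, 237 and 256 CPM in knockouts, against 288, 298, 374 and 245 CPM in wild types (-0.40, SE 0.14, or -0.49, SE 0.10 without wild type 4, the lowest wild type). Mog, on the outer face of the sheath, was at 47.3, 48.8, 47.2 and 43.1 CPM in knockouts, against 55.8, 62.8, 79.0 and 42.0 CPM in wild types (-0.36, SE 0.16, or -0.50, SE 0.10 without wild type 4). Wild type 4 lay among the knockouts for Mobp and below them for Mog, and the other 3 wild types lay above them in both. Ugt8a, which makes the galactolipids of myelin, had a fold change of -0.31 (SE 0.13), and the adhesion protein gene Mag had one of -0.31 (SE 0.18), or -0.46 (SE 0.11) without wild type 4. On the 7 libraries DESeq2 called 5 of the 18, among them Mobp, Mog and Mag, where it called 0.344% of the genes it gave an adjusted p. Outside the list, Nfasc, whose product anchors myelin at the node of Ranvier and is also made by neurons, was at 445, 469, 508 and 441 CPM in knockouts, against 563, 607, 619 and 707 CPM in wild types (-0.42, SE 0.10), with no overlap.

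Oligodendrocyte precursors had 12 negative fold changes among 15 genes and a median of -0.10. At an unadjusted p under 0.05, 2 were lower (3.57% of all genes). Without wild type 4, 13 were negative, 5 were lower (4.57% of all genes) and the median was -0.15. Microglial markers, 14 positive of 16 with 0 past that threshold, had a median of 0.14, and of 0.04 with 11 positive without wild type 4. Markers of neurons in general, 8 positive of 13 with 0 past it, had a median of 0.04, and of 0.07 without wild type 4. Of hemoglobin and other red cell transcripts, all 5 tested were negative with 0 at an unadjusted p under 0.05 and a median of -0.68, or -1.005 without wild type 4, the same sign as the endothelial markers. The 6 listed genes summed to 478, 285, 152 and 29.6 CPM in knockouts and to 469.5, 623, 268.5 and 88.1 CPM in wild types, with the groups overlapping widely. The part of blood content in these differences was not tested.

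Of 19 interferon-response genes 17 were negative, 3 of them lower at an unadjusted p under 0.05 (3.57% of all genes), with a median of -0.32; without wild type 4, 18 of 20 were negative, 4 were lower (4.57% of all genes) and the median was -0.50. The list summed to 96.9, 94.5, 91.6 and 109 CPM in knockouts, against 103, 148, 89.4 and 91.3 CPM in wild types, and wild type 2 stood above the other 7. Without that library the median was -0.04. Rsad2, the antiviral enzyme viperin, was at 0.824, 0.634, 0.586 and 0.604 CPM in knockouts, against 0.736, 3.23, 0.703 and 1.17 CPM in wild types (-1.15, SE 0.50), again with wild type 2 far above the rest. Slfn5, a schlafen gene known to be induced by interferon and not on the list, was at 1.65, 1.39, 1.55 and 1.24 CPM in knockouts, against 2.89, 3.83, 1.76 and 3.13 CPM in wild types (-1.003, SE 0.24), without overlap, and it shares reads with the antisense model Slfn5os where strand was not counted.

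Other genes had higher levels in knockouts. Sox9, the transcription factor of astrocytes and tanycytes, was at 46.7, 37.3, 32.0 and 56.9 CPM in knockouts, against 30.8, 31.4, 31.8 and 25.4 CPM in wild types. All knockouts were above all wild types, knockout 3 by a margin within the spread of the wild types, and the fold change was 0.54 (SE 0.17), or 0.46 (SE 0.16) without wild type 4. Of 18 astrocyte markers, 16 were positive and the median was 0.15. At an unadjusted p under 0.05, 2 were higher (1.66% of all genes). Without wild type 4, 10 were positive, 3 were higher (3.9% of all genes), 1 was lower (4.57%) and the median was 0.02. Id4, an inhibitor of basic helix-loop-helix factors that astrocytes and precursors express, was at 34.9, 38.0, 32.8 and 38.7 CPM in knockouts, against 25.5, 29.4, 32.3 and 24.3 CPM in wild types (0.37, SE 0.10), with no overlap. Gpr12, an orphan receptor, was at 9.60, 9.12, 8.38 and 8.49 CPM in knockouts, against 6.80, 6.18, 7.12 and 6.21 CPM in wild types (0.43, SE 0.11), again without overlap. Crebrf, a regulator of the stress factor CREB3, was at 180.5, 177, 179.9 and 184 CPM in knockouts, against 160.4, 155, 154 and 141 CPM in wild types (0.24, SE 0.07). Its small difference exceeded the spread within either group. Serpinb1b, an inhibitor of granule proteases, was at 4.90, 4.32, 2.93 and 3.93 CPM in knockouts, against 1.84, 2.35, 2.85 and 1.76 CPM in wild types (0.87, SE 0.22).

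Tex14, known as a germ cell gene, gave the widest spread between libraries among genes of its level that are named here. It was at 163, 332, 248 and 179.8 CPM in knockouts and at 109, 99.3, 119.6 and 3.81 CPM in wild types. All knockouts were above all wild types, and wild type 4 was lower than the other wild types by more than an order of magnitude. The fold change was 1.47 (SE 0.70) with an unadjusted p of 0.0619, and without wild type 4 it was 1.07 (SE 0.20) with an unadjusted p of 0.00022 and an adjusted p of 0.418. In fasted E4 libraries it was at 1396 CPM in knockout 1 and at 75.7 to 149 CPM in the other 6. It was singled out after its values had been seen.

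Marker genes of regions next to the hypothalamus were higher in some knockouts. Of 12 striatal markers 9 were positive, with a median of 0.63 and 1 higher at an unadjusted p under 0.05 (1.66% of all genes). Without wild type 4, 11 were positive, 9 were higher (3.9% of all genes) and the median was 0.92. Drd1, the dopamine receptor of striatal projection neurons, was at 5.43, 25.5, 5.19 and 35.8 CPM in knockouts, against 5.07, 4.14, 5.31 and 17.1 CPM in wild types. Adora2a, the adenosine receptor of the other class of these neurons, was at 0.679, 15.1, 1.17 and 20.6 CPM in knockouts, against 1.44, 1.05, 1.10 and 14.7 CPM in wild types. Both genes were high in knockouts 2 and 4 and in wild type 4 and low in the other 5 libraries, so the groups overlapped. Gpr6, a receptor of the same neurons, was at 2.52, 7.53, 3.43 and 7.69 CPM in knockouts, against 2.46, 2.74, 3.29 and 3.03 CPM in wild types (0.89, SE 0.34). Of 11 thalamic markers 9 were positive, with a median of 0.35, or 0.42 without wild type 4. On all 8 libraries 3 were higher at that threshold (1.66% of all genes). Prkcd, a kinase of thalamic relay neurons, was at 36.5, 10.3, 9.26 and 20.8 CPM in knockouts, against 9.66, 10.05, 11.2 and 12.7 CPM in wild types, so knockouts 1 and 4 set it apart. The striatal and thalamic sums thus moved with single libraries of both genotypes. How much of any difference above they carry was not tested.

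Genes of ribosomes and of respiration depended on wild type 4. All 72 cytoplasmic ribosomal protein genes were positive with a median of 0.33 and 0 at an unadjusted p under 0.05. Their sum was 6385, 6175, 5083 and 5715 CPM in knockouts, against 5579, 5164, 5565 and 2236 CPM in wild types, and wild type 4 was the only library far from the others. Without it, 67 of 72 were positive, 4 were higher (3.9% of all genes) and the median was 0.10. Of 68 genes of the respiratory chain, 67 were positive with a median of 0.24, and 57 were positive with a median of 0.05 without wild type 4. Receptors of neurons had the opposite sign, again with wild type 4. Of the glutamate and GABA receptor list, 28 of 40 genes were negative with a median of -0.08. Without wild type 4, 28 were positive, 10 were higher (3.9% of all genes), 3 were lower (4.57%) and the median was 0.05. For 42 potassium channel genes the median was -0.05, and without wild type 4 it was 0.0035.

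**Figure D3:**
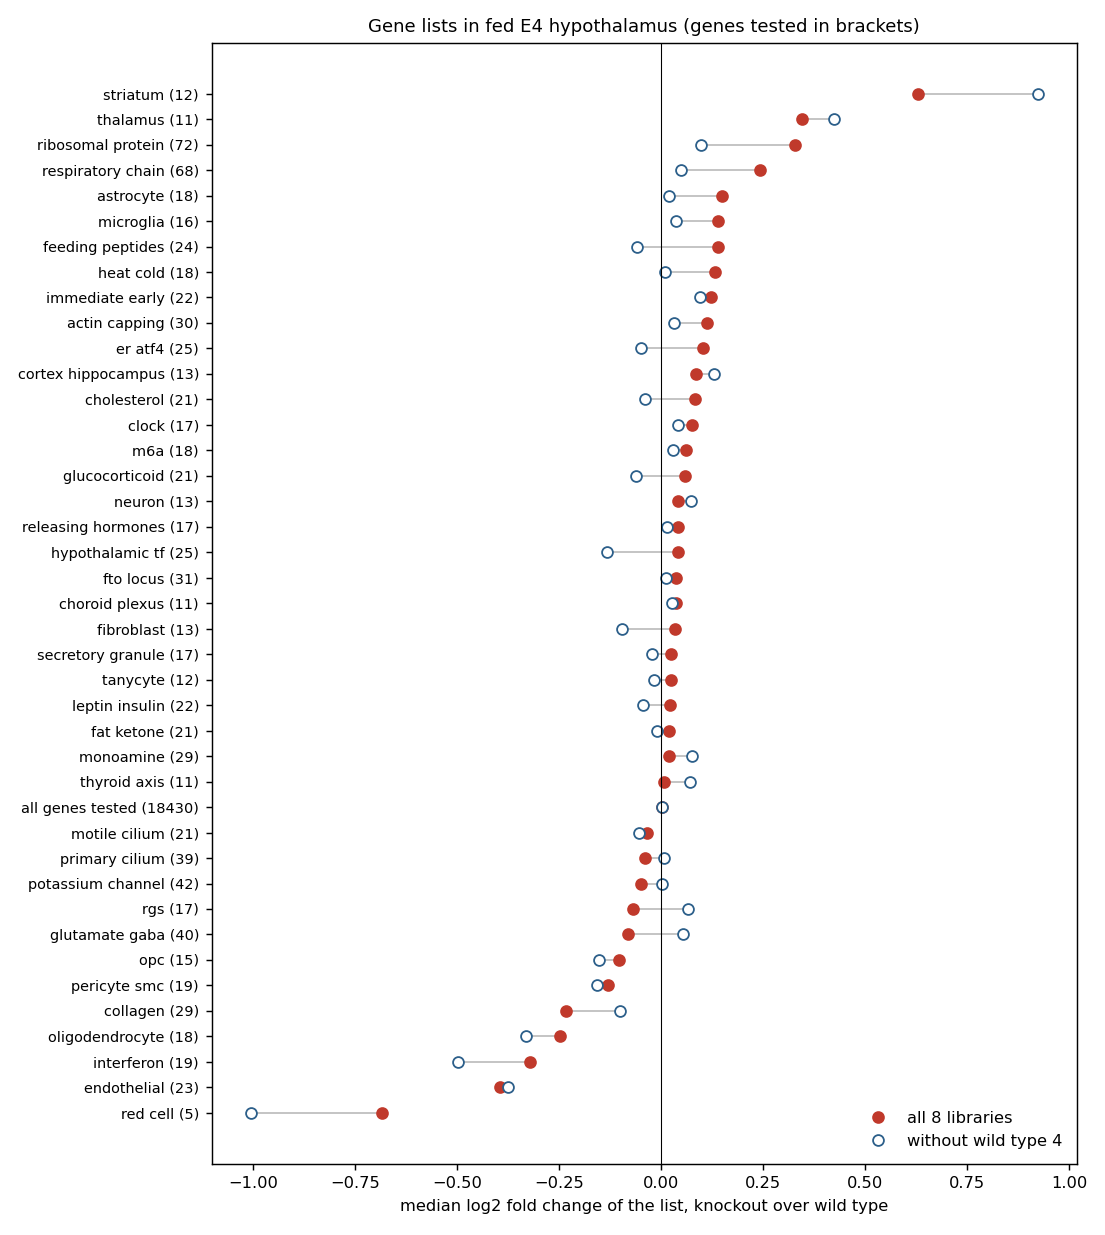
Median log2 fold change, knockout over wild type, of each gene list with at least 10 tested genes and of the red cell list (filled red: 8 libraries; open blue: without wild type 4; number of genes in brackets). Endothelial, oligodendrocyte and interferon lists lie between -0.25 and -0.50 in both fits, while the ribosomal protein list lies at 0.33 with wild type 4 and at 0.10 without it.

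At the locus the tables are named for, no gene was called. Fto itself (chr8:91313525-91668439, plus strand) was at 310.2, 320.3, 349 and 339 CPM in knockouts, against 349, 349, 342 and 388 CPM in wild types. Knockout 3 lay within the range of the wild types, and the mean difference was -7.74% with a 95% interval from -18.5% to 4.44%. It was -5.50% (-13.3% to 3.01%) without wild type 4. Rpgrip1l, the ciliary gene that shares a start region with Fto on the other strand, was at 47.8, 50.7, 50.1 and 50.8 CPM in knockouts, against 47.2, 51.6, 48.1 and 61.7 CPM in wild types (-0.06, SE 0.09). Of the Iroquois factors downstream, which enhancers in Fto introns are known to contact, Irx3 was at 3.39, 2.54, 1.93 and 1.28 CPM in knockouts, against 3.14, 1.76, 2.59 and 1.12 CPM in wild types (0.05, SE 0.36). Irx5 had a fold change of 0.15 (SE 0.24) and Irx6 one of 0.04 (SE 0.34). In all of these the groups overlapped, and at the low level of the Irx genes a difference was detectable only well beyond these values.

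Within 2 Mb of the start of Fto, 71 genes are annotated and 19 were tested, of which 8 were positive and 11 negative with a median of -0.014. None reached an unadjusted p of 0.05, and the smallest was 0.119, that of Aktip. Without wild type 4, 1 was lower at that threshold, Mmp2, which encodes a gelatinase, at 3.10, 2.66, 3.35 and 3.59 CPM in knockouts, against 4.22, 4.74, 4.04 and 2.74 CPM in wild types (-0.31, SE 0.19, or -0.45, SE 0.15 without wild type 4). In a wider list of 31 tested genes around Fto, the sorting nexin gene Snx20 was higher at an unadjusted p under 0.05, at 2.86, 1.43, 2.51 and 1.95 CPM in knockouts, against 1.56, 1.48, 1.63 and 0.880 CPM in wild types (0.64, SE 0.27), with knockout 2 within the wild-type range. Without wild type 4 it was 0.48 (SE 0.24, unadjusted p 0.0756), and Cyld, for a deubiquitinase, and Nudt21, for an mRNA cleavage factor, were the 2 higher genes of that list, with fold changes of 0.21 (SE 0.07) and 0.13 (SE 0.06), against 0.16 and 0.27 on all 8 libraries.

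**Figure D4:**
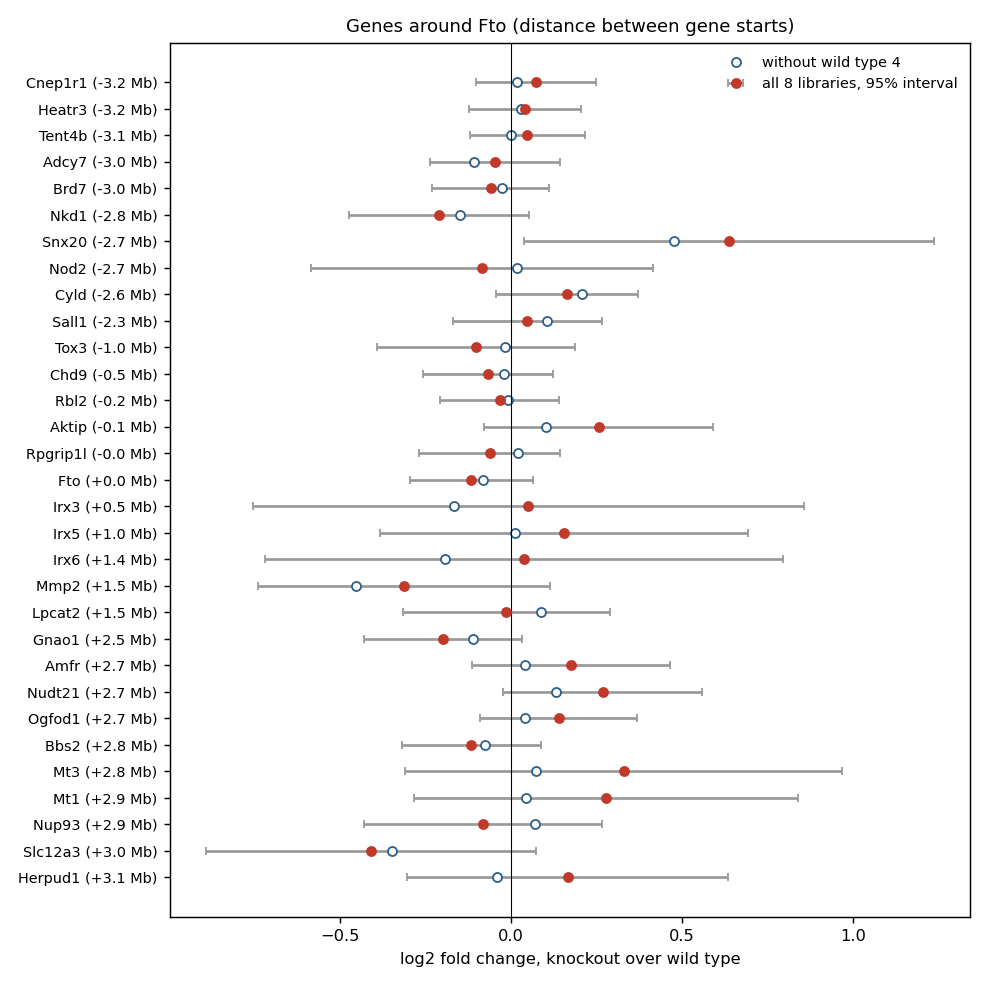
Log2 fold change, knockout over wild type, of the tested genes around Fto, ordered by the distance of their start from that of Fto (red: 8 libraries with the 95% interval; open blue: without wild type 4). Every interval but that of Snx20 (0.64) includes 0, and Fto lies at -0.12.

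Peptides that drive or curb feeding varied within the groups more than between them. Of 24 tested genes of feeding peptides and related factors, 15 were positive and the median was 0.14. At an unadjusted p under 0.05, 1 was higher (1.66% of all genes). Without wild type 4, 16 were negative, 1 was higher (3.9% of all genes), 2 were lower (4.57%) and the median was -0.06. Npy, the hunger peptide of the arcuate nucleus, was at 5.09, 8.25, 5.91 and 17.2 CPM in knockouts, against 5.24, 8.32, 8.21 and 2.79 CPM in wild types, with knockout 4 highest. Pomc, the precursor of the satiety peptide α-MSH, was at 23.1, 10.7, 11.0 and 2.52 CPM in knockouts, against 18.7, 16.4, 15.3 and 4.89 CPM in wild types. Knockout 4 and wild type 4 were the lowest, and the fold change was -0.24 (SE 0.56). Agrp, the partner of Npy, had a fold change of -0.15 (SE 0.14), but its annotated model spans Ctcf and Ripor1, whose reads may be counted with it. Cartpt, a satiety peptide, had one of 0.21 (SE 0.28).

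In the lateral hypothalamus, the orexin gene Hcrt was at 66.1, 49.5, 49.8 and 41.0 CPM in knockouts, against 67.6, 57.1, 64.0 and 25.03 CPM in wild types (-0.05, SE 0.27), and the melanin-concentrating hormone gene Pmch was at 44.2, 37.3, 33.2 and 34.1 CPM in knockouts, against 47.9, 40.5, 43.0 and 22.5 CPM in wild types (-0.05, SE 0.20). In both, wild type 4 was the lowest library; without it the fold changes were -0.30 (SE 0.13) and -0.25 (SE 0.10). Avp, the vasopressin gene, was at 114, 90.5, 90.1 and 322 CPM in knockouts, against 135, 108, 112 and 38.5 CPM in wild types. Knockout 4 was far above and wild type 4 far below the other 6, and the fold change of 0.65 (SE 0.47) had an unadjusted p of 0.198. Oxt, for oxytocin, had one of 0.35 (SE 0.34), or 0.05 (SE 0.11) without wild type 4. The releasing hormone genes Crh, Trh, Sst, Ghrh and the galanin gene Gal had fold changes of 0.39, 0.13, 0.21, -0.21 and 0.22, all with an unadjusted p above 0.11. They were 0.32, -0.15, 0.02, -0.38 and -0.07 without wild type 4, and that of Ghrh had an unadjusted p of 0.0497. Pdyn, the dynorphin precursor, was at 23.4, 38.6, 24.8 and 45.4 CPM in knockouts, against 24.8, 24.2, 24.6 and 18.8 CPM in wild types (0.52, SE 0.21), high in knockouts 2 and 4, the pair in which striatal markers were also high. Transcription factors that define hypothalamic nuclei, 14 positive of 25, had a median of 0.04. At an unadjusted p under 0.05, 1 of them was lower (3.57% of all genes). Without wild type 4, 6 were lower (4.57% of all genes) and the median was -0.13.

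The same genotypes were also compared after 72 h without food, in other libraries. Fed and fasted E4 mice were sequenced in different batches, so feeding and batch cannot be told apart, but knockout and wild type of each state shared one. Among the fasted libraries knockout 1 stood apart by depth, with 5517552 counts against 14310904 to 22853472 in the other 6. Its 10 highest genes held 36.3% of its counts, against 4.35% to 4.67% in the others. Pituitary markers summed to 5943 CPM in fasted knockout 3, against 0.943 to 179.7 CPM in the other 6. Liver markers summed to 83.7 and 190 CPM in fasted knockouts 1 and 2, against 2.92 to 15.2 CPM in the rest. The part of such tissue in the fasted differences was not tested. In the fasted comparison 830 genes were higher (4.63%) and 854 lower (4.76%) at an unadjusted p under 0.05. The fed effect minus the fasted effect, tested as an interaction in 1 fit of all 15 libraries, called 0 of 19393 genes (0%) with the smallest adjusted p at 0.445; at an unadjusted p under 0.05, 1035 were higher (5.34%) and 1133 lower (5.84%). The likelihood ratio test called 20 (0.103%), and DESeq2 called Hsd3b1 alone.

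Most endothelial markers had the opposite sign in fasted mice, as did Rgs5 and Abcc9 of the pericyte and smooth muscle list. Most of that list was negative in fasted knockouts. The fasted fold change of Abcc9 was 0.46 (SE 0.21). Of the 23 endothelial markers 17 were positive in fasted knockouts, with a median of 0.27. At an unadjusted p under 0.05, 6 were higher (4.63% of all genes) and 1 was lower (4.76%). Their sum was 188.1, 185.1 and 257.2 CPM in fasted knockouts, against 199.2, 183.8, 216.1 and 176.1 CPM in fasted wild types. Fasted knockouts 1 and 2 thus lay within the range of the wild types. Only fasted knockout 3, the library with the highest pituitary markers, had a sum above that range. For the fed effect minus the fasted effect, 21 of the 23 markers were negative, 9 were lower at that threshold (5.84% of all genes) and the median was -0.62. Without fed wild type 4 the median was -0.54. Rgs5 was at 25.7, 14.9 and 29.6 CPM in fasted knockouts, against 18.2, 18.3, 16.4 and 16.7 CPM in fasted wild types, a fold change of 0.40 (SE 0.19), and fasted knockout 2 lay below all wild types. Its fed effect minus its fasted effect was -1.01, with an unadjusted p of 0.000379 and an adjusted p of 0.445 by edgeR. When fasted knockout 2 was left out, Rgs5 became the 1 gene called in this test. Ptprb was at 17.5, 15.1 and 20.1 CPM in fasted knockouts, against 15.02, 14.5, 14.5 and 12.98 CPM in fasted wild types (0.30, SE 0.13), above all of them, and Flt1 was at 17.3, 18.4 and 35.4 CPM, against 16.2, 15.4, 18.2 and 11.4 CPM in fasted wild types (0.68, SE 0.23), with fasted knockout 1 below the highest wild type. The differences of effect were -1.14 and -1.44, with unadjusted p of 0.000541 and 0.00136.

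Of the oligodendrocyte markers 17 of 18 were negative in fasted knockouts as well, but none was lower at an unadjusted p under 0.05 and the median was -0.14. Mobp was at 297, 290.3 and 259.6 CPM in fasted knockouts, against 311.5, 352, 317 and 264 CPM in fasted wild types (-0.14, SE 0.11), with overlap. Pericyte and smooth muscle markers were negative in 15 of 18 cases with a median of -0.26. Ribosomal protein genes were negative in 67 of 72 cases in fasted knockouts, 37 lower at that threshold (4.76% of all genes), with a median of -0.25. They summed to 7074, 7817 and 6492 CPM in fasted knockouts, against 8649, 7951, 8305 and 8520 CPM in fasted wild types. Of the interferon regulator Nlrc5, fed knockouts had 2.91, 2.62, 2.97 and 2.75 CPM and fed wild types 3.17, 4.78, 3.29 and 3.52 CPM, while fasted knockouts had 5.09, 3.20 and 4.59 CPM and fasted wild types 2.22, 1.70, 2.17 and 1.49 CPM. It was lower in all fed knockouts and higher in all fasted ones, with a difference of -1.50 and an unadjusted p of 9.05e-05. Among the 5 smallest p of this test were also Gm15477, Ect2l, 6430710C18Rik and Col27a1, with differences of -1.77, -1.08, -2.50 and -0.85. The level of 6430710C18Rik was low, at 0.145 to 0.492 CPM in fed and 0.223 to 1.30 CPM in fasted libraries. It did not pass the filter on low counts when each state was fitted alone. Avp was at 44.7, 103 and 43.8 CPM in fasted knockouts, against 218, 145, 238 and 274 CPM in fasted wild types (-1.75, SE 0.29), without overlap, and its difference was 2.41 with an unadjusted p of 0.00152.

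**Figure D5:**
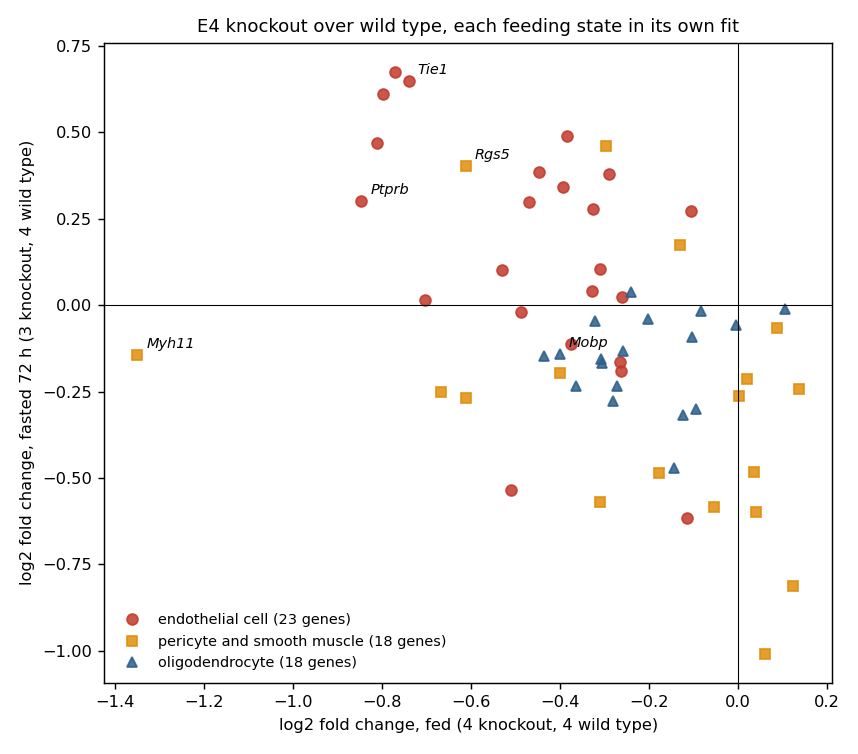
Log2 fold change of knockout over wild type in fed mice (horizontal axis) and in fasted mice (vertical axis), 1 point per gene of the endothelial, pericyte and oligodendrocyte lists, each state in its own fit. All 23 endothelial genes lie left of 0 and 17 of them above 0, while 17 of the 18 oligodendrocyte genes lie below 0 on the vertical axis.

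Against the other fed lines, the E4 effect was set beside the mean of the effects of E1, E2, E3 and E5 in 1 fit of all fed libraries. None of 15585 genes was called (0%), with the smallest adjusted p at 0.953, while 151 had a higher effect in E4 (0.969%) and 377 a lower one (2.42%) at an unadjusted p under 0.05; DESeq2 called Prl alone, a pituitary hormone listed at 0 in 7 of the 8 fed E4 libraries. All 23 endothelial markers had a lower effect in E4 than the mean of the other lines, 6 of them at that threshold (2.42% of all genes), with a median of -0.58. Without wild type 4, 22 were negative, 4 were lower at that threshold (206 of 15574 genes) and the median was -0.48. The lines differed among themselves, however. In the fed E3 comparison all 23 were negative as well, 15 lower at an unadjusted p under 0.05 (5.35% of genes were lower there), with a median of -0.52, whereas 22 were positive in E1, 20 in E2 and 21 in E5, with medians of 0.21, 0.48 and 0.22. Rgs5 had fold changes of 0.23 in E1, 0.28 in E2, -0.43 in E3 and 0.48 in E5, and the effect in E4 was lower than their mean by 0.76 on the log2 scale (difference -0.76, unadjusted p 0.0011).

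Ssh3 had the smallest p of that test, with fold changes of 0.08, 0.03, -0.03 and 0.13 in E1, E2, E3 and E5, and a difference of -0.45 (unadjusted p 9.06e-05). Sox9 had fold changes from -0.08 to 0.08 in the other lines and a difference of 0.53 (unadjusted p 0.000839). Ctf1, the cytokine cardiotrophin 1, was at 0.921, 1.70, 1.63 and 1.71 CPM in E4 knockouts, against 0.963, 0.632, 0.791 and 0.391 CPM in E4 wild types, with a difference of 1.15 from the other lines (unadjusted p 0.000561); knockout 1 lay within the wild-type range. Klhl33 and Skint6, with differences of 0.56 and -0.69, complete the 5 genes of smallest p. Carmil3 had fold changes from -0.14 to 0.08 in the other lines and a difference of -0.40 (unadjusted p 0.00801). For Ushbp1 the difference was -1.15 (unadjusted p 0.0073), with fold changes of 0.02, 0.89, -0.42 and -0.22 in E1, E2, E3 and E5. The oligodendrocyte markers had medians of -0.14 in E1, -0.04 in E2, -0.07 in E3 and 0.17 in E5. For Mobp the difference of the E4 effect from the mean of the others was -0.34 (unadjusted p 0.0628).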

How the data were processed

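The deposited tables hold raw counts per Ensembl gene, made by the authors; the submitters' processing notes name HISAT2, Bowtie2, edgeR and mm10, and their versions, the counting program and its strand setting are not given in the sources used here. The labels name a Qiagen kit for RNA and the Ultra II DNA kit for the libraries. For this comparison the authors also deposited log2 fold changes (wild type over knockout), p-values and q-values.

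Counts were tested with edgeR 4.0.16 in R 4.3.3 (TMM scaling, filterByExpr set to 10 counts and a total of 15, quasi-likelihood test, Benjamini-Hochberg adjustment over all tested genes, called at an adjusted p under 0.05). Fed knockouts and wild types were fitted alone, fasted and fed E4 libraries together for the difference of effects, and all fed libraries together, each table's lines with their own controls, for the comparison with other lines. Alternatives were DESeq2 1.42.0, other size factors, no filter, the likelihood ratio test, a replicate block, a GC offset, larger fits, each library left out and, chosen after seeing the data, fits without wild type 4 and limma 3.58.1 with sample weights. List genes are given by count and median, with no set test. Named genes were those of smallest p in each comparison, lists and the Fto locus by rule. Others, among them Tex14 and Abcb1a, were added after their values were seen. The members and gene lists were chosen with earlier results of these data known. Same-numbered knockout and wild-type libraries were checked for pairing and deviated together in no regular way. No library pair agreed within counting noise. The scripts were checked on simulated counts. Some genes are not reported here. Promoters are from RefSeq (GRCm38.p6), and intervals of 95% cover the spread between libraries.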

Additional observations from a re-analysis of the deposited data

Results flagged for a closer look

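Among 162 gene or list levels in a group of 4 libraries, 17 had a highest or lowest library whose gap to the next relative to the range of the group exceeded Dixon's 95% critical value. Chance gives about 1 such library in 20 groups. In 13 of the 17 the library was wild type 4, and the causes were not tested.

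Wild type 4 had the highest level among wild types of the striatal receptor genes Adora2a (14.7 CPM, against 1.05 to 1.44 in the other 3) and Drd1 (17.1 CPM, against 4.14 to 5.31) and of Fto (388 CPM, against 342 to 349). Its summed striatal markers were 1991 CPM, against 961 to 1037, and its summed thalamic markers were 564 CPM, against 302 to 339.9. It had the lowest level of the galanin gene Gal (3.76 CPM, against 12.4 to 13.8), of Trh (10.9 CPM, against 35.4 to 38.7), of Sst (25.2 CPM, against 47.3 to 51.7) and of Pdyn (18.8 CPM, against 24.2 to 24.8). It was also the lowest wild type for Sox9 (25.4 CPM, against 30.8 to 31.8) and for Irx6 (0.342 CPM, against 0.878 to 0.966). Its summed ribosomal protein genes were 2236 CPM, against 5164 to 5579, and its summed genes of the respiratory chain were 2022 CPM, against 3522 to 3764.

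The other 4 were single genes. Knockout 4 had 322 CPM of Avp, against 90.1 to 114 in the other knockouts, and knockout 1 had 0.921 CPM of Ctf1, against 1.63 to 1.71. Wild type 2 had 3.76 CPM of Crh, against 2.25 to 2.38 in the other wild types, and wild type 1 had 6.18 CPM of Ect2l, against 7.02 to 7.07.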

How the results depend on the processing

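The genotype test of fed E4 libraries called 0 genes by edgeR's quasi-likelihood test with other size factors, without the filter, for protein-coding genes, with 4 or 10 groups in the fit and with the GC trend taken out. Leaving out each library in turn also gave 0 to 0, with 538 to 1585 genes at an unadjusted p under 0.05. DESeq2 called 3, the likelihood ratio test 2 and limma's voom with sample weights 1. Without wild type 4, DESeq2 called 43, the likelihood ratio test 31 and the fit with the GC trend taken out 1. For the difference of the fed and fasted effects, DESeq2 called 1, the likelihood ratio test 20, leaving out single libraries 0 to 1, and 13 libraries 0. For the difference from other lines, DESeq2 called 1 and leaving out single libraries gave 0 to 0. With the replicate block the genotype test called 0 (902 at an unadjusted p under 0.05), and with block and GC offset 0 (985). Deviations of same-numbered libraries correlated at 0.142, 0.028, -0.104 and 0.175, and 1 of 4 numbers correlated best with its own, so the numbers are only shared.

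Of 70 named genes, 59 kept their sign in every alternative run and 11 did not; none of the 11 was called, and the cause was not tested. Without wild type 4, DESeq2 and the likelihood ratio test gave fold changes of -0.029 and -0.032 for Cartpt, -0.064 and -0.068 for Gal, -0.15 and -0.15 for Irx3, -0.19 and -0.20 for Irx6, 0.023 and 0.0195 for Rpgrip1l and -0.15 and -0.15 for Trh. The fit without it and with the GC trend taken out gave -0.016 for Gal, -0.13 for Irx3, -0.14 for Irx6 and -0.10 for Trh. With sample weights, the values were -0.039 for Gal, -0.0497 for Irx3, -0.044 for Irx5, -0.16 for Irx6, 0.0078 for Rpgrip1l and -0.12 for Trh. The replicate block gave 0.019 for Hcrt. Leaving out single libraries gave -0.00062 to 0.84 for Avp, -0.036 to 0.36 for Cartpt, -0.067 to 0.36 for Gal, -0.30 to 0.079 for Hcrt, -0.19 to 0.30 for Irx3, -0.0103 to 0.29 for Irx5, -0.19 to 0.19 for Irx6, -0.25 to 0.0700 for Pmch, -0.79 to 0.10 for Pomc, -0.11 to 0.019 for Rpgrip1l and -0.15 to 0.27 for Trh.

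Of 45 list medians, 8 moved beyond the spread in some alternative, 6 of them in one other than leaving out wild type 4. With 4 libraries a group, genes of a few CPM were measured with the widest errors.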

Other observations

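The authors' deposited table of this comparison lists 18265 genes with fold changes of wild type over knockout. The authors' deposited table gives 4 genes a q-value under 0.05 and 1 an adjusted p under 0.05. For the genes below, that adjusted p equals the p-value multiplied by the 18265 genes listed. It is not the Benjamini-Hochberg adjustment used above, so it cannot be set beside the adjusted p-values given there. Ushbp1 had a log2 value of 1.08, a q-value of 0.00423 and an adjusted p of 0.0047 in the authors' deposited table. For Rgs5 the authors' deposited table gives 0.62, a q-value of 0.0384 and an adjusted p of 0.0855, and for Slfn5 it gives 1.02, a q-value of 0.0493 and an adjusted p of 0.219.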
